A study of Mus musculus with 150 samples.

Results

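The comparison is of whole-lung gene expression between 2 kinds of mice that had inhaled air, without styrene, for 52 weeks: outbred CD-1 mice and inbred wild-type C57BL/6 mice (WT). It rests on the arrays labelled dose 0 and 52 weeks for these strains, 4 from CD-1 and 5 from WT, which are 9 of the 150 arrays of the series, with 1 array per mouse. The series followed adult male mice from 1 supplier through 26 to 104 weeks of inhaling air (0 ppm) or styrene (120 ppm), an aromatic solvent. Beside CD-1 and WT it held C57BL/6 mice labelled CYP2F2(-/-) (KO) and CYP2F2(-/-),2F1,SA13,2B6 (TG), which are used below only for values set beside the WT comparison. In TG the mouse gene is missing as in KO and the genes named in its label are added, with a promoter and site not given in the sources used here. The labels give the age of every animal only as adult, so strain differences are between mice that shared an exposure period, not a stated age.

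C57BL/6 mice are inbred, so animals of that strain carry nearly the same 2 copies of every gene. CD-1 is an outbred Swiss stock, in which each animal carries its own mixture of alleles. Some differences between such mice are textbook examples of natural null alleles: C57BL/6 mice carry the H2b haplotype, in which the promoter of the class II chain H2-Ea is deleted, they do not express the DNA sensor family member Ifi202b, and their Atp10d, a lipid flippase gene, holds a premature stop. An array adds a caution that holds for every result here. Its probes were designed on a reference sequence, so a probe set can read a sequence variant of a strain as a change of level. In whole lung, fewer cells of a type and less RNA per cell cannot be told apart either.

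Values are log2 intensities, in which 1 unit is a factor of 2, and array medians over the series lay between 3.95 and 4.26. The lung label fitted the marker genes. Surfactant protein C (Sftpc) lay at 13.8 in both strains (SD 0.02 in WT, n = 5, and 0.03 in CD-1, n = 4), the club cell secretoglobin Scgb1a1 at 13.9, and the alveolar type 1 receptor Ager between 13.5 and 13.6 on every array. Cyp2f2, the P450 that oxidises styrene in club cells and the gene deleted in KO and TG, read 13.50 ± 0.04 in WT (SD, n = 5) and 13.36 ± 0.07 in CD-1 (n = 4), against 12.08 ± 0.29 in KO (n = 5) and 12.09 ± 0.19 in TG (n = 5), where the array thus still read a high level. The CD-1 difference from WT in Cyp2f2 was -0.15 (limma, adjusted p = 0.55). The arrays that agreed least with their own group were CD-1 replicate 3, the only one of the 9 on plate 2, with a median correlation of 0.987 with the other CD-1 arrays, and CD-1 replicate 1 (0.989). The remaining 7 arrays lay between 0.990 and 0.994, with WT replicate 5 the lowest of the WT arrays (0.991). The fit carried a term for plate 2, so a fitted difference can depart a little from the difference of the means of the printed values.

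Of 15695 genes tested, 935 differed between the strains at an adjusted p of at most 0.05 (limma, adjusted by Benjamini and Hochberg over all genes tested), which is 5.96%. Of these 327 were higher in CD-1 (2.08% of the genes tested) and 608 were lower (3.87%). Most of the differences were small. The median size among the called genes was 0.67 on the log2 scale, 87 of them were over 2-fold higher, 134 were over 2-fold lower, and 35 exceeded 4-fold. The median over all genes tested was -0.02. In 722 of the 935 all CD-1 animals lay on one side of the WT range, a pattern that held for 1652 genes in all (10.5% of those tested). Of the 935 genes, 401 (140 higher and 261 lower) kept the call when each of the 9 arrays was left out in turn, which is 42.9%. Without CD-1 replicate 3 and WT replicate 5 together 545 genes were called, 216 higher and 329 lower. The named genes below carry the call without each array unless the text says otherwise.

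**Figure D1:**
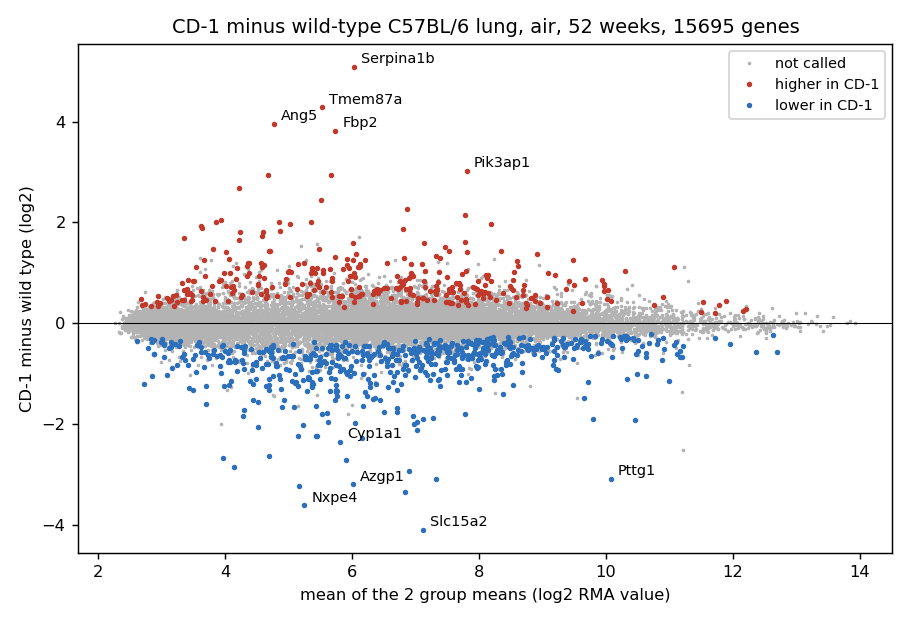
Fitted CD-1 minus WT difference (log2, vertical axis) of each of the 15695 tested genes against the mean of its WT and CD-1 group means (log2 level, horizontal axis), with the 327 genes called higher and the 608 called lower coloured apart from the rest and 10 genes of the text named. Serpina1b stands at the top with a difference of 5.08 and Slc15a2 at the bottom with -4.10.

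Several of the genes highest in CD-1 lay near the dim end of the arrays in WT lungs. Serpina1b, a copy of the alpha-1-antitrypsin gene, which encodes an elastase inhibitor made mainly by the liver, read 2.74, 3.16, 3.02, 4.47 and 3.69 in the 5 WT mice and 8.37, 8.61, 9.07 and 8.55 in the 4 CD-1 mice. The groups were far apart, with a fitted difference of 5.08 (SE 0.51, adjusted p = 1.16e-14). Both probe sets of Serpina1b read it higher, and both are of the kind that may cross-hybridise with close copies of the gene. Tmem87a, which encodes a Golgi membrane protein, lay at 3.61, 3.34, 3.39, 3.43 and 3.42 in WT and at 7.44, 7.53, 7.73 and 7.79 in CD-1. No animal of either strain came near the other group, and the difference of 4.29 (SE 0.15) had the smallest adjusted p of the named genes, 5.57e-52. Fbp2, the muscle form of fructose-1,6-bisphosphatase, a gluconeogenic enzyme, was 14.1-fold higher in CD-1 (3.81, SE 0.34, adjusted p = 1.5e-17). Its WT values ran from 3.34 to 4.37 and its CD-1 values from 7.25 to 8.06.

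Pik3ap1, an adaptor that links B cell and Toll-like receptors to phosphoinositide 3-kinase, was read by 2 probe sets that differed. The brighter set read 6.32, 6.10, 6.03, 6.46 and 6.45 in WT and 9.30, 9.55, 9.28 and 9.24 in CD-1. The difference was 3.02 (SE 0.20, adjusted p = 3.81e-26). The other Pik3ap1 set was not called and had the opposite sign (-0.32, adjusted p = 0.416 over all probe sets tested, with means of 5.96 in WT and 5.70 in CD-1). Atp10d, the flippase with the C57BL/6 stop, read 6.76, 6.77, 6.72, 6.92 and 6.48 in WT and 8.38, 9.07, 9.04 and 8.88 in CD-1. All CD-1 animals were higher, by 2.14 in the fit (SE 0.18, adjusted p = 5.03e-19). Ctse, which encodes the endosomal aspartic protease cathepsin E, differed more between CD-1 animals. It read 4.38, 4.35, 3.80, 4.20 and 4.29 in WT and 8.69, 7.00, 6.16 and 6.73 in CD-1, so that CD-1 replicate 1 stood well above the rest (2.93, SE 0.62, adjusted p = 0.00044).

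Other genes among the 15 highest were Efhd1, a mitochondrial calcium-binding protein (2.93), Abhd1 (2.45), Ocel1 (2.26), Clmp, a junctional adhesion protein (2.01), and Chst8, a sulfotransferase (2.00). In each of these 5 the CD-1 and WT values did not overlap. For some genes the mean of the dimmer strain lay under the level used as the filter, the 30th percentile of each array's probe sets (3.05 to 3.10 on the 9 arrays). For those only a lower bound of the fold is given, computed against that level or the gene's own value on each dim array, whichever was higher. On that footing the histone gene H2bc18 was at least 5.54-fold higher in CD-1 (adjusted p = 5.7e-13) and Elobl at least 3.39-fold (adjusted p = 1.62e-09).

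Ang5, a ribonuclease of the angiogenin family, was present in some CD-1 animals and not in others. It read 2.74, 2.74, 2.30, 2.80 and 2.82 in WT and 8.06, 2.66, 8.92 and 7.83 in CD-1. CD-1 replicate 2 thus lay within the WT range and the other CD-1 animals some 5 units above it, and the difference of 3.96 (SE 0.86, adjusted p = 0.000679), at least 13.8-fold, is a mean over animals at both levels. The fit pooled the spread with that of the C57BL/6 lines, where Ang5 hardly varied. Its SE and p are therefore smaller than the spread between CD-1 mice alone would give. Over all 42 CD-1 mice of the series, of any week and exposure, Ang5 lay above 4 in 34 (5.00 to 9.24) and below it in 8 (2.35 to 2.96), while the highest of the 108 arrays of the C57BL/6 lines read 3.25. The level of 4 was chosen after the values were seen and lies in the gap between them.

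The gene lowest in CD-1 was Slc15a2, which encodes PEPT2, the carrier that takes up di- and tripeptides and peptide-like drugs in the bronchial and alveolar epithelium. It read 9.36, 9.00, 8.94, 9.23 and 8.88 in WT and 5.08, 5.06, 5.83 and 4.62 in CD-1. The groups did not overlap and the difference was -4.10 (SE 0.29, adjusted p = 2.24e-24), or 17.2-fold. Its 3 tested probe sets did not read the gene alike: they gave -4.10, -3.18 and 0.86, the last called in the opposite direction. Nxpe4 was lower in every CD-1 animal (-3.62, SE 0.27, adjusted p = 4.97e-22), with WT values from 6.74 to 7.47 and CD-1 values from 3.04 to 3.98. Smim6, a small membrane protein that regulates calcium pumps, and Ankrd63 gave differences of -3.35 and -3.24, also without overlap.

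Azgp1, the zinc-alpha-2-glycoprotein, a secreted lipid-mobilising relative of class I molecules, read 7.51, 7.75, 7.71, 7.58 and 7.40 in WT and 4.13, 5.64, 4.08 and 3.88 in CD-1. All CD-1 animals were lower, CD-1 replicate 2 least so (-3.20, SE 0.37, adjusted p = 1.05e-11). Pttg1, which encodes securin, the inhibitor that holds sister chromatids together until anaphase, read 11.80, 11.71, 11.57, 11.44 and 11.63 in WT and 8.73, 8.48, 8.41 and 8.50 in CD-1. It was bright in WT and fell in every CD-1 animal (-3.09, SE 0.41, adjusted p = 4.34e-09), and its 3 probe sets all read lower. WT did not stand for every C57BL/6 line here. Pttg1 ran from 8.64 to 11.28 in the 5 KO air mice of the same week (9.39 ± 1.09, SD) and from 8.75 to 11.71 in the 5 TG mice (SD 1.27), and the CD-1 difference from KO was -0.85 (adjusted p = 0.235) against -2.45 from TG (adjusted p = 3.69e-06).

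Trim12a, a relative of the retroviral restriction factor TRIM5, was at least 5.68-fold lower in CD-1 (adjusted p = 2.64e-23), and Cd200r4, an activating receptor of the CD200 receptor family on myeloid cells, at least 4.59-fold (adjusted p = 7.76e-07). In both genes every CD-1 animal lay under the filter level, at 2.53 to 2.93 and 2.61 to 2.76. The other probe set of Trim12a, with the means of both strains under that level, was not called (0.12). Trim16, an E3 ligase of the same broad family as Trim12a, differed by -2.93, Gm19439 by -2.72, C920006O11Rik by -2.63 and the transcription factor gene Sox11 by -2.25, all lower in CD-1. The variable gene of an immunoglobulin lambda chain, Iglv1, was also called (-3.09, adjusted p = 0.0173), but its animals ranged widely, from 7.65 to 10.88 in WT and from 4.25 to 6.74 in CD-1. Its call was lost without CD-1 replicate 2 (adjusted p = 0.132), CD-1 replicate 3 (0.0516) or WT replicate 4 (0.0883).

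**Figure D2:**
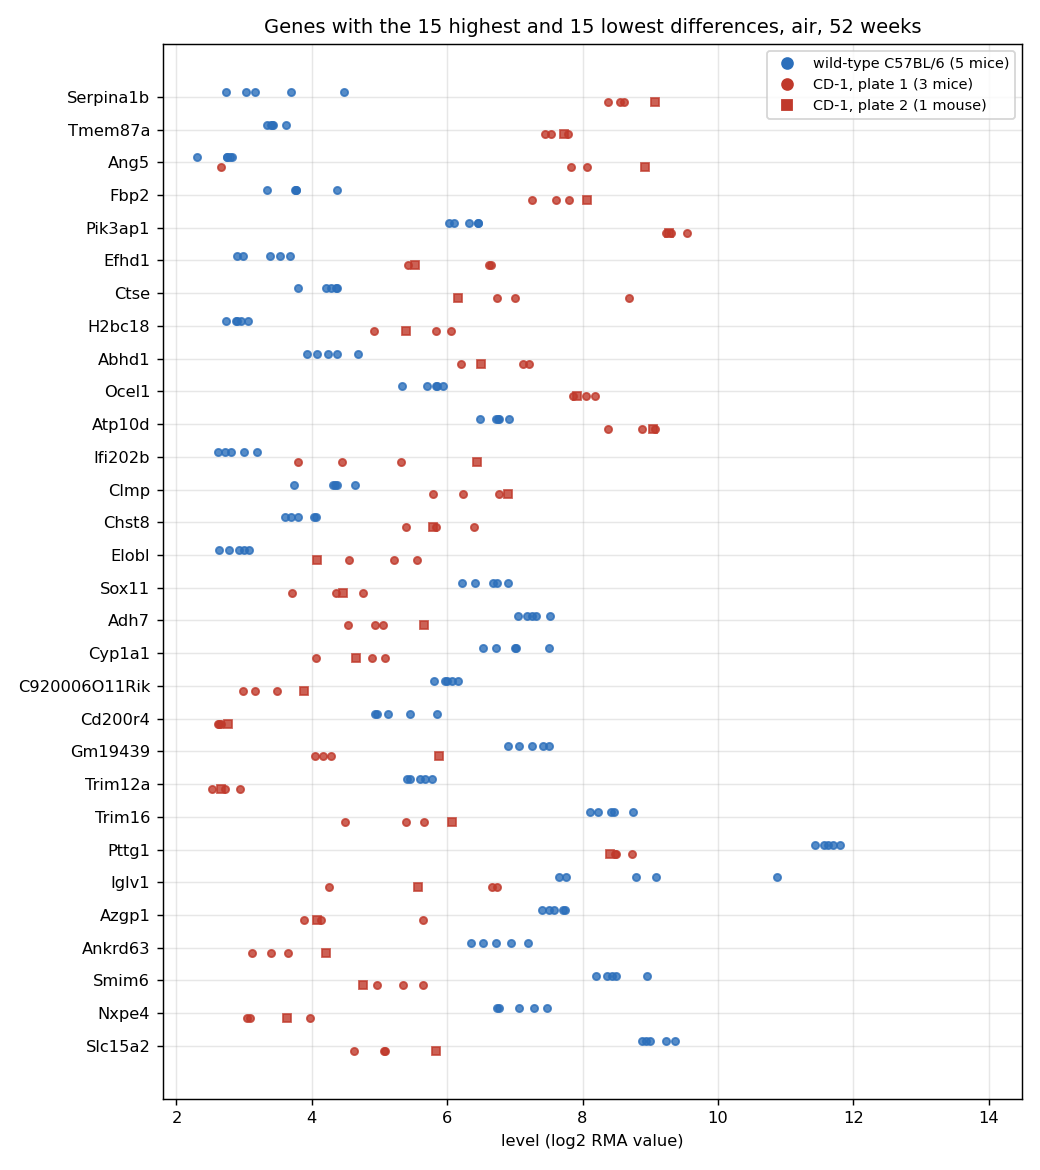
Log2 intensity (horizontal axis) of the 15 called genes highest and the 15 lowest in CD-1 (vertical axis), with a circle for each of the 5 WT and 3 of the CD-1 air mice at 52 weeks and a square for the CD-1 mouse on plate 2. Tmem87a shows the groups far apart, at 3.34 to 3.61 in WT and 7.44 to 7.79 in CD-1, while in Ang5 a single CD-1 mouse, at 2.66, lies among the WT mice.

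The class II genes of the major histocompatibility complex encode the alpha and beta chains that present peptides to helper T cells. H2-Aa pairs with H2-Ab1 and H2-Ea with H2-Eb1, and the genes are switched on together by a complex that binds shared promoter boxes. H2-Aa and H2-Eb1 read low together in 1 CD-1 animal on the probe sets used. The sequences below show the region before the start of each of these genes in the reference genome, which is that of C57BL/6. They are the 250 bases before the gene start from RefSeq (GRCm38.p6), 5′ to 3′, at chr17:34287824-34288073 (minus strand) for H2-Aa and chr17:34305617-34305866 (plus strand) for H2-Eb1. Capitals mark CTGATTGG, the inverted CCAAT box known as the Y box.
H2-Aa: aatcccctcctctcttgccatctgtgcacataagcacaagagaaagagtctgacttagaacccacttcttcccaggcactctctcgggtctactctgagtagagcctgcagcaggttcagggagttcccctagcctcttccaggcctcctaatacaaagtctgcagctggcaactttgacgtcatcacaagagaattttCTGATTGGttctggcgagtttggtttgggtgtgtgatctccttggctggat
H2-Eb1: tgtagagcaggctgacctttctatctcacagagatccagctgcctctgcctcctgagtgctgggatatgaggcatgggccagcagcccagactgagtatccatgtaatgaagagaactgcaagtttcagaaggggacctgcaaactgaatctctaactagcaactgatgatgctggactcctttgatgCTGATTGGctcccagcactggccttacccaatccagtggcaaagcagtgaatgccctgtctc
The letters CTGATTGG, searched on both strands (CCAATCAG on the other), begin 51 bases before the start of H2-Aa and 62 before that of H2-Eb1. They were also found before H2-Eb2 and H2-Oa, so in 4 of the 9 class II windows, which cover 8 genes, against 1258 of 32851 promoter windows of the same length (3.83%). Neither H2-Ea nor H2-Ab1 is among these 8 genes. The windows hold the reference sequence and say nothing about the alleles of the CD-1 animals, and the part of the promoters in the low values was not tested.

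The class II genes differed widely between individual CD-1 mice. H2-Aa read 11.97, 11.77, 11.70, 11.84 and 11.74 in WT and 11.64, 8.63, 11.01 and 11.15 in CD-1. All CD-1 animals lay below the WT range, CD-1 replicate 2 by about 3 units, and the difference of -1.37 missed the threshold (SE 0.46, adjusted p = 0.0557). It passed without CD-1 replicate 1 (adjusted p = 0.0118) or CD-1 replicate 4 (0.0387). H2-Eb1 read 11.14, 11.30, 11.30, 11.42 and 11.31 in WT and 11.11, 6.65, 10.29 and 10.51 in CD-1. The same animal, CD-1 replicate 2, was the low one. H2-Eb1 was the only called gene of the 12 class II genes tested, against 5.96% of all genes tested (-1.93, SE 0.59, adjusted p = 0.0313). The call rested on CD-1 replicate 2, without which the difference was -0.89 (adjusted p = 0.502). It was lost also without CD-1 replicate 3 (adjusted p = 0.0764), WT replicate 2 (0.053), WT replicate 3 (0.0513), WT replicate 4 (0.0574) or WT replicate 5 (0.0544), and with the replicate number as a block (-1.65, adjusted p = 0.197).

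H2-Ea, silent in the H2b haplotype, read 5.19, 5.02, 5.37, 5.08 and 5.29 in WT. In CD-1 it read 5.78, 6.37, 5.72 and 10.24, so that CD-1 replicate 4 alone held a high level. The strain difference was not called (1.70, SE 0.75, adjusted p = 0.186). H2-Ab1 had no such outlying animal, with 10.52, 10.44, 10.50, 10.89 and 10.64 in WT against 11.73, 10.86, 10.78 and 10.41 in CD-1 (0.34, SE 0.18, adjusted p = 0.305). Another H2-Ab1 set was called higher (1.39, adjusted p = 0.00128), at 8.23 to 9.00 in WT and 9.07 to 11.42 in CD-1, and the last was not called (0.63, adjusted p = 0.0802). The other probe sets of H2-Aa gave further values for the same animals. One was called lower, at -3.42, with CD-1 at 3.70, 3.36, 3.26 and 6.80. Another was called higher, at 0.61, with CD-1 at 12.05, 11.80, 11.51 and 11.47 against 10.91 to 11.28 in WT. CD-1 replicate 2 was not low on that set, so the direction of H2-Aa depended on the probe set. Both H2-Aa sets that read lower are of the kind that may cross-hybridise with related genes.

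Across the 42 CD-1 mice of the series the same separation recurred. H2-Eb1 lay below 9 in 12 CD-1 mice (6.20 to 7.78) and above it in 30 (9.89 to 11.94), and H2-Aa lay below 10 in the same 12 (8.14 to 9.23) and above it in the other 30 (10.47 to 12.07). No mouse was low in only 1 of the 2 genes on the probe sets used. H2-Ea lay above 9 in 11 CD-1 mice (9.59 to 11.16) and below in 31 (4.95 to 7.24), and none of the mice with high H2-Ea had low H2-Eb1. The 108 arrays of the C57BL/6 lines formed 1 cluster in each gene: 4.58 to 5.57 for H2-Ea, 10.89 to 12.27 for H2-Eb1 and 11.34 to 12.43 for H2-Aa. In H2-Ab1 the CD-1 mice (10.41 to 11.73) and the C57BL/6 lines (9.97 to 11.67) spanned the same levels. These levels of 9 and 10 were chosen after the values were seen and lie in gaps between them, so the counts describe the animals and no test was made.

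**Figure D3:**
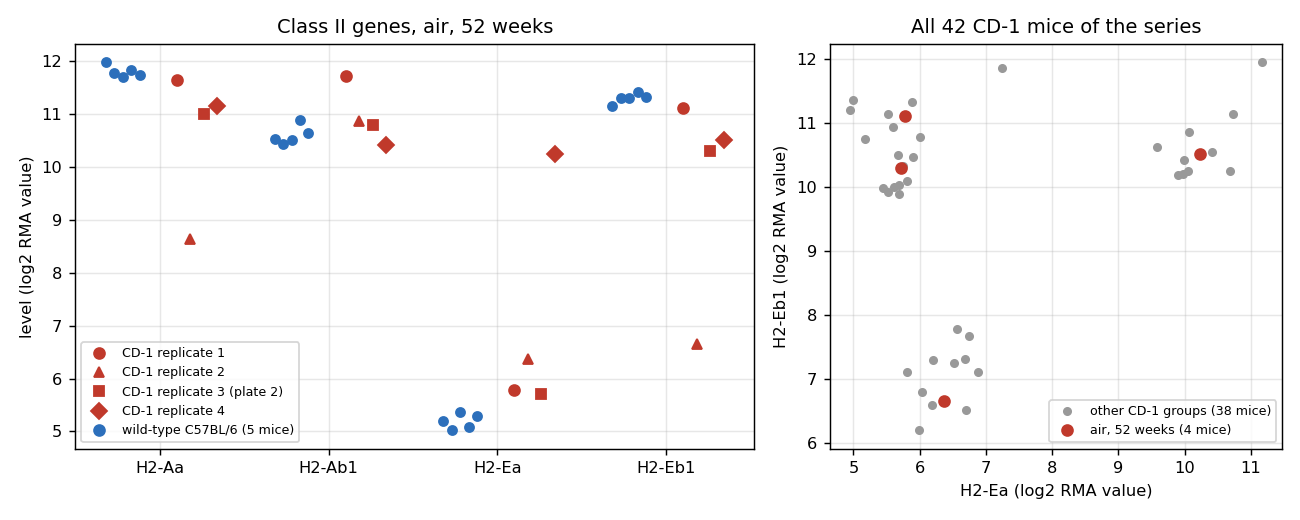
Left, log2 intensity (vertical axis) of 4 class II genes (horizontal axis) in each of the 5 WT and 4 CD-1 air mice at 52 weeks, with a symbol for each CD-1 mouse; right, H2-Eb1 against H2-Ea (both log2) in the 42 CD-1 mice of the series, with the 4 mice in air at 52 weeks in colour. On the probe sets used, CD-1 replicate 2 is low in H2-Aa (8.63) and H2-Eb1 (6.65) and CD-1 replicate 4 is high in H2-Ea (10.24). No mouse on the right has high H2-Ea with low H2-Eb1.

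Among other immune genes the p200 family, cytosolic and nuclear DNA sensors encoded in a cluster that varies in content between mouse strains, had members that moved both ways. Of 6 tested, 1 was higher and 2 were lower, where 2.08% of all genes tested were called higher and 3.87% lower. Ifi202b, the member C57BL/6 mice do not express, read 2.62, 2.81, 2.71, 2.99 and 3.19 in WT and 5.32, 3.80, 6.44 and 4.45 in CD-1. Every CD-1 animal was higher, by at least 3.72-fold in the mean (adjusted p = 6.6e-06), though the CD-1 animals spread over more than 2 units. Ifi209 ran from 4.36 to 5.69 in WT and from 2.98 to 3.54 in CD-1, a difference of -1.85 (SE 0.41, adjusted p = 0.000767), and Ifi213 fell by 1.20 on the log2 scale (SE 0.30, adjusted p = 0.00457). These members are near copies of one another, so probes may be shared between them. The other probe sets of Ifi209 (-0.18) and Ifi213 (-0.14) lay near or under the filter level and were not called.

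A list of 9 tested genes with textbook variants between inbred strains gave 2 called genes, both higher in CD-1: Ifi202b and Alad. Among all genes tested 2.08% were called higher. Alad, which makes porphobilinogen for haem and is duplicated in some strains, was higher by 0.66 (SE 0.17, adjusted p = 0.00628), a call lost without CD-1 replicate 1 (adjusted p = 0.109). Glo1, a methylglyoxal-clearing enzyme also duplicated in some strains, read 9.30, 11.03, 10.46 and 10.26 in CD-1 against 9.34 to 9.55 in WT, so that CD-1 replicate 1 alone lay near the WT level (0.73, adjusted p = 0.0552, and adjusted p = 0.00434 without CD-1 replicate 1). The other 2 probe sets of Glo1 were called higher in CD-1, by 1.01 (adjusted p = 0.000539) and 0.96 (adjusted p = 0.00321). Hc, which encodes complement C5 and has a common null allele, was not called (-0.63, adjusted p = 0.264, but adjusted p = 0.0176 with the replicate block). The aryl hydrocarbon receptor Ahr, whose allele in C57BL/6 differs from that of many other strains, was not called either (0.61, adjusted p = 0.154), nor were Nnt, Mx1, Pde6b or H2-Ea.

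Receptors of natural killer cells and lectin-like relatives had 2 of 20 tested genes higher and none lower, and neither kept the call without each array. Among all genes tested 2.08% were called higher and 3.87% lower. Of the 20 differences 11 lay above 0, with a median of 0.10, against -0.02 over all genes tested. Their summed intensity on the linear scale, which bright members dominate, ran from 2261 to 2467 in CD-1 and from 1339 to 1755 in WT. Klra17, a receptor of the Ly49 family, read 4.30, 3.77, 3.44, 3.96 and 3.38 in WT and 5.06, 4.18, 4.63 and 6.03 in CD-1, and the groups overlapped. It was called at 1.20 (SE 0.25, adjusted p = 0.000372) but not without CD-1 replicate 4 (adjusted p = 0.0668). The receptor Ncr1, in the list of T and natural killer cell markers, was the only called gene of the 16 tested there (1.44, SE 0.34, adjusted p = 0.00226), and lost its call without CD-1 replicate 2 (adjusted p = 0.0734). That marker list summed to 924 to 2011 in CD-1 and 957 to 1281 in WT, and its part in the receptor values was not tested.

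Of 28 chemokines tested 1 was called, where 5.96% of all genes tested were called. Ccl17, a ligand of CCR4 made by dendritic cells, read 7.35, 7.29, 7.77, 7.95 and 8.77 in WT and 5.18, 6.11, 6.61 and 6.52 in CD-1, where every animal was lower (-1.85, SE 0.40, adjusted p = 0.000638). Of the 24 tested genes of the type I interferon response 1 was higher and 1 lower, and neither kept the call without each array. None of 13 guanylate-binding proteins and related GTPases was called, with 12 of the 13 differences above 0. Their median was 0.32, against -0.02 over all genes tested. None of the 12 B cell markers was called, and of 10 plasma cell markers only Iglv1 was.

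Each list of lung epithelial markers had at most 2 called genes, where 5.96% of all genes tested were called. Alveolar type 1 cells had 1 lower gene of 11 tested, Gprc5a (-0.71, adjusted p = 0.00444). Its call was lost without CD-1 replicate 4 (adjusted p = 0.0997). Of 11 tested markers of alveolar type 2 cells, which make surfactant, 2 were lower and none higher, with a median of -0.15, and only Sftpd kept the call without each array. The other, Etv5, also lost it with the replicate block (-0.33, adjusted p = 0.26). Their summed intensity was 50318 to 53810 in WT and 44296 to 53213 in CD-1. Sftpd, the collectin surfactant protein D, read 12.59, 12.50, 12.59, 12.63 and 12.80 in WT and 11.77, 12.40, 12.28 and 11.97 in CD-1. All CD-1 animals were lower (-0.58, SE 0.11, adjusted p = 2.92e-05), though the call was lost with the replicate block (-0.47, adjusted p = 0.0856). Among 15 club cell markers 2 were lower, neither of which kept the call without each array, and the sums were 70046 to 76882 in WT and 68676 to 71094 in CD-1. Of 13 markers of ciliated cells 1 was lower, the tubulin Tubb4b (-0.38, SE 0.09, adjusted p = 0.00342, and adjusted p = 0.0584 with the replicate block). Only 1 of the 13 differences lay above 0. No gene of 15 markers of goblet and mucosal secretory cells was called.

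Mesothelial markers, the genes of the pleural lining, lay lower in CD-1 without exception among the 8 tested, with a median of -0.70, but 1 alone passed the test. Over all genes tested the median was -0.02 and 5.96% were called. The called marker, the uroplakin Upk1b, read 7.89, 7.91, 7.73, 8.01 and 8.47 in WT and 6.36, 6.22, 5.37 and 5.92 in CD-1. The groups were well apart (-2.01, SE 0.25, adjusted p = 3.84e-10). The summed mesothelial intensity, 3003 to 4314 in WT and 2180 to 3141 in CD-1, overlapped, and the part of pleural content in the Upk1b value was not tested.

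Endothelial markers went the other way. Of 16 tested, 14 differences lay above 0 (median 0.25), and their summed intensity did not overlap, at 12873 to 15102 in WT and 16047 to 17837 in CD-1. Over all genes tested the median difference was -0.02, and 2.08% were called higher. The only called member was Aplnr, the apelin receptor of capillary endothelium, at 9.14, 9.06, 8.94, 8.15 and 8.90 in WT and 9.96, 10.00, 10.14 and 10.39 in CD-1 (1.25, SE 0.29, adjusted p = 0.00153). Fibroblast markers also had 14 of 15 differences above 0, with sums of 17299 to 19124 in WT and 19730 to 22376 in CD-1 and 2 called genes, both lost when single arrays were left out. Of 13 alveolar macrophage markers 3 were higher. Siglecf, the lectin that marks resident alveolar macrophages, kept the call without each array, at 6.09 to 6.71 in WT and 7.20 to 7.79 in CD-1 (0.94, SE 0.22, adjusted p = 0.00146). None of the 12 neutrophil markers was called. The calgranulin S100a9 differed by 1.11 (adjusted p = 0.295, but adjusted p = 0.0456 with the replicate block, at 0.87), and WT replicate 1, at 12.43, lay well above the other WT mice (9.78 to 10.75).

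Genes of xenobiotic metabolism, the pathway through which the lung handles styrene, had calls in some lists and none in others, most of them lower in CD-1. Over all genes tested 5.96% were called, 2.08% higher and 3.87% lower. Of 21 P450s and flavin monooxygenases 1 was higher and 1 lower. Cyp1a1, the P450 that the aryl hydrocarbon receptor induces, read 7.00, 6.73, 7.50, 6.52 and 7.02 in WT and 5.08, 4.89, 4.65 and 4.06 in CD-1. The groups did not overlap (-2.35, SE 0.43, adjusted p = 2.74e-05), a 5.11-fold difference. None of the other tested targets of the receptor was called, 9 having been tested in all. Cyp2d22, the mouse relative of human CYP2D6, was higher in every CD-1 animal, at 7.81 to 8.19 against 6.80 to 7.21 (0.92, SE 0.19, adjusted p = 0.000394).

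Enzymes of aldehyde and carbonyl metabolism had 5 lower and no higher genes of 23 tested, with a median of -0.29 and summed intensities of 30217 to 31325 in WT and 27371 to 28618 in CD-1. Adh7, the class IV alcohol dehydrogenase that oxidises retinol and ethanol in epithelia, read 7.52, 7.31, 7.04, 7.25 and 7.18 in WT and 4.94, 5.05, 5.66 and 4.54 in CD-1 (-2.28, SE 0.29, adjusted p = 6.5e-10). Its other probe set was not called (-0.74, adjusted p = 0.214 over all probe sets tested). The liver-type Adh1 was lower in every CD-1 animal too, at 8.67 to 9.70 against 10.07 to 10.47 (-1.16, SE 0.22, adjusted p = 6.1e-05). The other 3 called genes lost their calls when single arrays were left out. Of 18 glutathione transferases 3 were lower, and 1 of the 18 differences lay above 0 (median -0.19). Gstm6 kept the call without each array, at 5.20 to 5.99 in WT and 4.13 to 4.71 in CD-1 (-1.16, SE 0.19, adjusted p = 2.63e-06). None of 11 carboxylesterases, 11 sulfo- and glucuronosyltransferases or 20 Nrf2 targets was called.

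In all, 50 lists of genes held 690 tested genes, of which 50 were called (18 higher and 32 lower), or 7.25%, against the 5.96% of all genes tested. Of the 50, 19 kept the call without each array, and 17 lists had no called member. Among clade A serpins, the secreted protease inhibitors to which Serpina1b belongs, Serpina9 moved opposite to it. It read 6.61, 5.47, 5.14, 5.58 and 5.11 in WT and 3.37, 3.35, 3.50 and 3.60 in CD-1 (-2.07, SE 0.43, adjusted p = 0.000348), and the other 5 of the 7 tested were not called. Of 24 plasma proteins, made mainly by the liver, only Azgp1 was called, and it was lower. Of 20 mitotic genes only Pttg1 was called. Among 21 matrix proteases and their inhibitors Ctse was higher and Mmp3, stromelysin, lower (-1.88, adjusted p = 0.000791). Mmp3 read 6.38, 4.49, 9.24 and 5.91 in CD-1, CD-1 replicate 3 lying above the WT range of 7.48 to 8.73, and its call was lost without CD-1 replicate 2 (adjusted p = 0.09) or with the replicate block (-1.38, adjusted p = 0.228). No gene was called among 16 clock genes, 17 immediate early genes, 12 heat shock chaperones or 23 respiratory chain genes.

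Spread between animals was compared as the SD of each gene over the 3 CD-1 arrays of plate 1 and over the 5 WT arrays. The median SD was 0.155 in CD-1 (0.174 with all 4 arrays) and 0.162 in WT. In 47.9% of genes the CD-1 SD over the 3 arrays was the larger. A median SD tends to be lower over fewer arrays, and the strains had unequal numbers of arrays. These values therefore do not settle whether the typical gene varied more in the outbred mice. Large SDs were found in more genes in CD-1. An SD over 1 was found for 57 genes in CD-1 (74 with all 4 arrays) and 28 in WT, and for 17 to 44 genes over the 10 possible sets of 3 WT arrays, whose median SD was 0.125 to 0.164. Without CD-1 replicate 2, so over CD-1 replicates 1 and 4 alone, the count was 87. The 99th percentile of the SD was 0.75 in CD-1 and 0.58 in WT. In 37 genes the CD-1 SD was over 1 and the WT SD under 0.5, against 9 genes the other way round, and 14 of the 57 were among the called genes. An SD over 3 arrays is less exact than one over 5, so high SDs can be more frequent for that reason alone. The 99th percentiles and the 37 against 9 were not matched for the number of arrays, as the count over 1 was.

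The genes that varied most between CD-1 mice were led by Ang5, H2-Ea and H2-Eb1. Trim12c, a close relative of Trim12a, read 6.67, 5.83, 5.59 and 2.83 in CD-1. The p200 member Ifi205 read 4.48, 7.06, 5.51 and 7.64, and Jchain, the chain that joins IgA and IgM units, read 9.42, 6.28, 9.60 and 10.02. In each of these a single mouse or a pair stood away from the others, and it was not the same mouse: CD-1 replicate 4 was low in Trim12c and CD-1 replicate 2 in Jchain. Bpifa1, an airway secretory protein, read 8.86, 7.36, 13.08 and 10.93. H2-Aa, the zinc finger gene Zbtb16 and the sulfotransferase Sult2a2 made up the rest of the 10 most variable genes, of which Ang5 and H2-Eb1 were called. Zbtb16 varied widely in WT too, from 6.2 to 9.1 against 5.7 to 9.4 in CD-1, with replicate 1 the lowest in both strains.

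**Figure D4:**
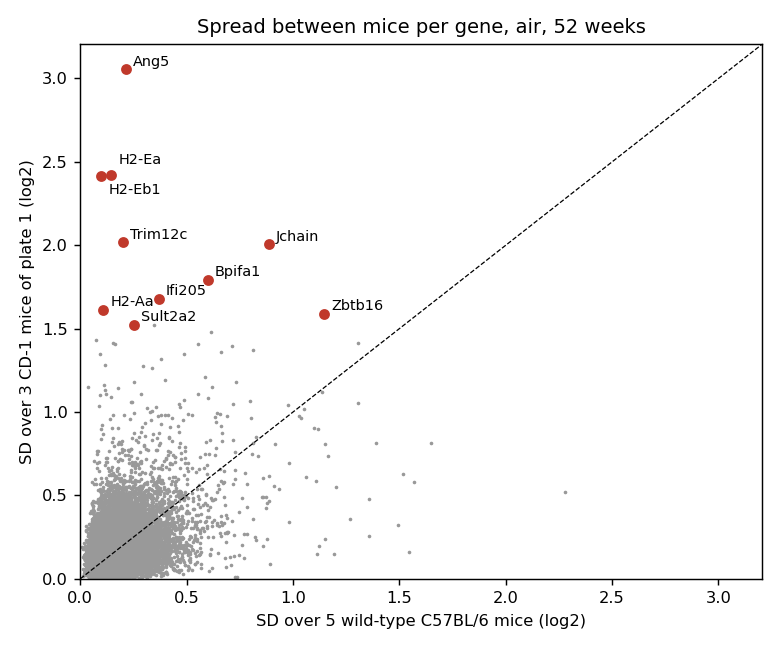
SD of each tested gene over the 3 CD-1 arrays of plate 1 (vertical axis, log2) against its SD over the 5 WT arrays (horizontal axis, log2), with the 10 most variable CD-1 genes named. The dashed line marks equal SDs, and an SD over 1 is reached by 57 genes in CD-1 and 28 in WT. Over sets of 3 WT arrays that count is 17 to 44.

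Several probe sets read many of the genes. At the level of probe sets 1436 of 26071 were called, and in 16 genes probe sets were called in opposite directions (7 genes without CD-1 replicate 2, 9 without CD-1 replicate 3 and 10 without WT replicate 4). Of 382 called genes with more than 1 tested probe set, 297 had every set on the same side of 0, 77 had every set called the same way, and 85 had a set of the other sign. The remaining 553 called genes were read by 1 set alone. Slc15a2 was the largest of the opposite cases. Gadd45gip1, a mitochondrial ribosomal protein, read -1.77 in the brighter set and 0.36 in another, and Prxl2c read -1.23 and 0.47. The other Gadd45gip1 set was dim, with means of 2.7 in WT and 3.1 in CD-1, near or under the filter level. For genes with opposite probe sets a level difference and a sequence or transcript difference cannot be told apart from these files.

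Called genes were looked up beside their neighbours in the mouse gene table. Of 15643 pairs of adjacent tested genes 84 were both called (0.537%), 60 of them in the same direction, and 6 runs of 3 or more called neighbours held 20 genes. Pairs and runs were not counted for calls placed at random, so these numbers describe position and do not by themselves show clustering. The count of runs depended on single arrays: it was 1 without CD-1 replicate 3, 2 without WT replicate 4 or WT replicate 5, and 3 without CD-1 replicate 2, CD-1 replicate 4 or WT replicate 2. In 1 run the polycomb gene Cbx6, Apobec3, which encodes a cytidine deaminase that restricts retroviruses, and the polycomb gene Cbx7 fell, with differences of -0.92, -1.36 and -1.13. Each was lower in all CD-1 animals, with Apobec3 at 6.65, 6.81, 6.97, 7.10 and 6.84 in WT and 5.46, 5.59, 5.41 and 5.72 in CD-1 (adjusted p = 2.3e-08). Another run held the RNA demethylase gene Fto, Irx3, the noncoding Crnde and Irx5, all lower. Crnde fell most, by 1.21 on the log2 scale (SE 0.16, adjusted p = 5.74e-09), and Fto fell by 0.50 (adjusted p = 0.00329). The call of Irx3 (-0.47) was lost without CD-1 replicate 3 (adjusted p = 0.124), without WT replicate 5 (0.0544) and with the replicate block (0.06). That of Irx5 (-0.49) was lost without CD-1 replicate 1 (adjusted p = 0.0514), CD-1 replicate 3 (0.0661) or WT replicate 3 (0.0583). In a further run Il18, an inflammasome cytokine, was higher in every CD-1 mouse, at 8.72 to 9.31 against 7.87 to 8.34 in WT (0.86, SE 0.20, adjusted p = 0.00162), while its neighbour Bco2, a carotenoid-cleaving enzyme, was lower (-0.77, adjusted p = 0.00591).

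The same strains were also read in other animals. Air mice at 78 weeks (5 CD-1 and 2 WT arrays) gave 366 called genes (2.33% of those tested), air mice at 104 weeks (7 and 4 arrays) gave 1828 (11.6%), and mice that inhaled 120 ppm styrene for 52 weeks (3 and 5 arrays) gave 543 (3.46%). None of these arrays is among the 9 above. Of the 935 genes called in 52-week air mice, 283 were called in the same direction at 78 weeks, which is 30.3% of the 935 and 77.3% of the calls at 78 weeks. At 104 weeks 535 were (57.2% of the 935 and 29.3% of the calls there), and under styrene 351 were (37.5% and 64.6%). No gene called in both went opposite ways. The sign alone was shared by 98.1% of the 935 at 78 weeks, 94.9% at 104 weeks and 96% under styrene, against 69%, 63.4% and 66.7% of all genes tested.

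In the other animals the size of the differences was smaller than in those on which the genes were called. The genes called higher had a median difference of 0.71 in 52-week air mice and of 0.52, 0.47 and 0.49 at 78 weeks, at 104 weeks and under styrene. Those called lower had medians of -0.64, then -0.49, -0.48 and -0.44. In all 4 comparisons 199 genes were called in the same direction, 70 higher and 129 lower, or 21.3% of the 935. Tmem87a differed by 4.16, 3.91 and 4.09 in the 3 other sets of mice, Serpina1b by 5.52, 4.97 and 5.33, Pik3ap1 by 3.16, 3.43 and 3.19, and Slc15a2 by -4.01, -3.94 and -3.90. These values lay close to those of the 52-week air mice, and all were called.

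Some of the genes with large differences at 52 weeks in air were not called elsewhere. Cyp1a1 differed by -0.23 at 78 weeks (adjusted p = 1), -0.95 at 104 weeks (adjusted p = 0.101) and -0.65 under styrene (adjusted p = 0.679). Its WT mean was 6.95 ± 0.37 (SD, n = 5) in 52-week air mice and 5.63 and 5.57 at 78 and 104 weeks, while the CD-1 means were 4.67, 5.40 and 4.62. The change of the strain difference was itself not called, between 104 and 52 weeks (1.41, adjusted p = 0.448) or between styrene and air (1.70, adjusted p = 1). Ctse differed by 1.42, 1.35 and 1.41 in the other sets of mice, none of them called (adjusted p = 0.574, 0.107 and 0.351), and CD-1 mice ranged widely there, with an SD of 2.11 at 78 weeks (n = 5) and 2.28 at 104 weeks (n = 7).

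Few genes were called in the tests of whether the strain difference itself changed with exposure or week. With exposure 1 gene was called (0.00637% of those tested) by limma, while 529 had an unadjusted p under 0.05. That gene, Glg1, a Golgi glycoprotein that binds fibroblast growth factors, read 9.11, 8.43, 8.59 and 9.32 in CD-1 air mice. Under styrene it was 7.68 ± 0.29 (SD, n = 3) in CD-1 and 9.00 ± 0.11 in WT (n = 5), a change of the strain difference of -1.45 (SE 0.28, adjusted p = 0.0105). With week, 104 against 52, 2 genes were called (0.0127%), and 1367 had an unadjusted p under 0.05. They were Camkv, a pseudokinase of neurons (-0.86), and Efcab11, an EF-hand protein (0.76), both at an adjusted p of 0.0142. Camkv was dim at 52 weeks in air, with means of 3.02 in WT and 3.17 in CD-1, near the filter level. The other Efcab11 probe sets were not called at 52 weeks in air (-0.20 and -0.21). Efcab11 was lower in CD-1 at 52 weeks in air by at least 1.23-fold while at 104 weeks the difference was 0.10 and was not called.

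The CYP2F2 lines of the same week give the CD-1 arrays further C57BL/6 mice beside them. They share the CD-1 arrays with the WT comparison, so their values stand beside it and support nothing. CD-1 air mice differed from KO air mice in 1041 genes (6.63%) and from TG air mice in 1996 (12.7%). Against KO and TG, Tmem87a differed by 4.25 and 4.40, Serpina1b by 5.54 and 5.21, Slc15a2 by -4.22 and -4.05, Ctse by 2.56 and 2.69, and Cyp1a1 by -1.90 and -1.87, all called. The exception among the largest differences was Pttg1, given above for KO.

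**Figure D5:**
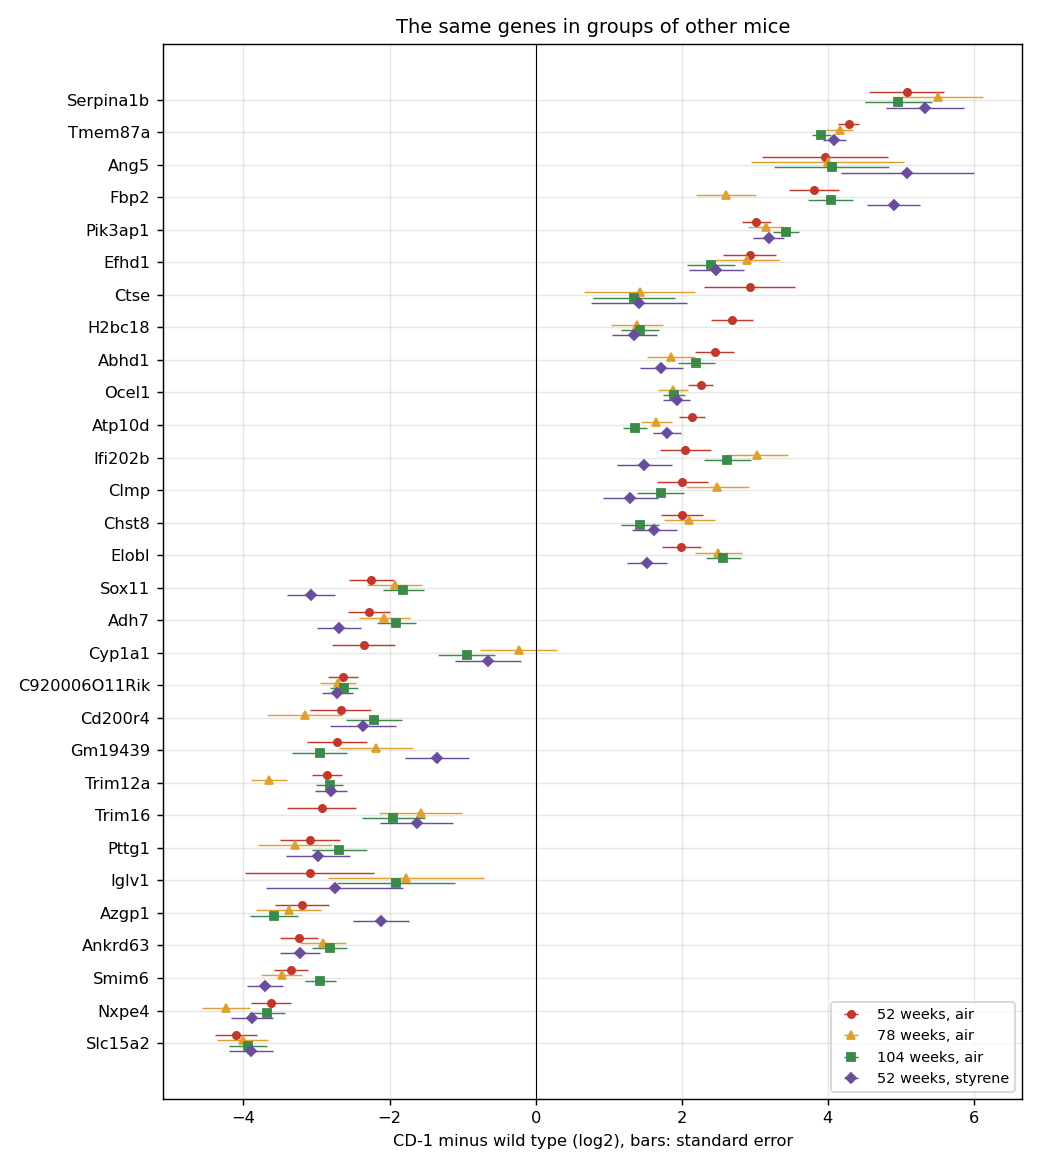
Fitted CD-1 minus WT difference (log2, horizontal axis) of the 15 called genes highest and the 15 lowest at 52 weeks in air (vertical axis), with a point and its standard error for air at 52, 78 and 104 weeks and for styrene at 52 weeks. Serpina1b stays near 5 and Slc15a2 near -4 in each set of mice, while Cyp1a1 goes from -2.35 at 52 weeks in air to -0.23 at 78 weeks.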

How the data were processed

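Whole-lung RNA of each mouse was run on 1 Affymetrix array of the type HT MG-430 PM. As deposited, each probe set has 1 log2 intensity per array, summarised with RMA (Partek is also named) per the submitters' processing notes. Versions and the genome build were not given in the sources used here. They ran from 1.74 to 14.0 over 45037 probe sets. Arrays give no read depth, and their number limits the precision.

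Strain, dose, week and replicate came from each sample's own labels. The labels' treatment text speaks of exposures of 1 or 4 weeks, which differ from the 52 weeks of the sample labels used here. Plates were inferred from the well labels (88 arrays on plate 1 and 14 on plate 2). The remaining arrays, all of 104 weeks, were given no plate term, and the groups that hold both plates set the term for plate 2. The platform annotation listed 29449 probe sets, 28898 with 1 gene and 551 with several, which were left out, and 15588 probe sets are unnamed here. The set with the highest mean over all arrays stood for each of 17097 genes, and 15695 genes above the 30th percentile of the array in at least 3 arrays were tested. That level was 2.99 to 3.19.

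The 31 group means of all 150 arrays and a term for plate 2 were fitted with limma (lmFit and eBayes), with Benjamini-Hochberg adjustment over the genes tested and a threshold of 0.05. Every adjusted p is from limma and is 2-sided. In the main fit it rests on the spread between animals within the 31 groups of all 150 arrays, not within the CD-1 and WT groups alone. Of these arrays 108 are of C57BL/6 lines. For genes that vary mainly between CD-1 mice, such as Ang5 and H2-Eb1, the p is therefore too small. Where a p is given with an array left out or with the replicate block, it comes from that refit. Sequences and gene neighbours came from RefSeq (GRCm38.p6), whose gene coordinates were not set against the array.

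The members and lists were chosen with earlier results of these data known. Genes named are the 15 highest and 15 lowest called, up to 5 of each list by smallest p, all textbook variants, Cyp2f2, the 10 with the largest CD-1 SD, called genes with opposite probe sets (up to 8), genes in runs of called neighbours and up to 6 of each interaction. The marker genes Sftpc, Scgb1a1 and Ager were given as a check of the tissue.

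The groups share replicate numbers 1 to 4 in the labels. Deviations from the group means of same-numbered CD-1 and WT arrays correlated at 0.19, 0.14, 0.17 and 0.18, all over 0.1, so the numbers were taken to pair the arrays, although replicates 1 and 2, and 3 and 4, also correlated across numbers. Alternatives were other sets of arrays, no plate term, other filters, the mean of probe sets, eBayes with trend and robust, centred arrays, each array left out and the replicate block. A fit without CD-1 replicate 3 and WT replicate 5 together, the alternatives for the CYP2F2 lines, and those for spread, probe sets and neighbours were chosen after seeing the data. The fit was tested on simulated data. Software was R 4.3.3, limma 3.58.1, the data.table package (1.17.8), Python 3.11.15, pandas 2.3.3, numpy 2.4.6 and matplotlib 3.10.9.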

Additional observations from a re-analysis of the deposited data

Results flagged for a closer look

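Values of named genes were checked for a mouse standing apart from its group in 236 groups of 4 or 5 animals, and 11 did so. Chance alone marks about 1 in 20 such groups. In CD-1 they were replicate 2 in Azgp1 (5.64), Jchain (6.28) and the alveolar macrophage marker Krt79 (9.09), replicate 3 in Gm19439 (5.88), and replicate 4 in H2-Ea (10.24). In WT they were replicate 1 in Rassf1 (8.74), replicate 3 in Ang5 (2.30), replicate 4 in Aplnr (8.15), Gstm6 (5.20) and Nnt (8.00), and replicate 5 in Trim12c (5.30).

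The strain difference itself differed with exposure at 52 weeks for Glg1, by -1.45 (styrene minus air), and with week in air for Camkv, by -0.86, and Efcab11, by 0.76 (104 minus 52 weeks). Camkv lay near the filter level at 52 weeks.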

How the results depend on the processing

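The 935 calls became 545 without CD-1 replicate 3 and WT replicate 5 together. Leaving out single arrays gave 634 (without CD-1 replicate 3) to 995 (without CD-1 replicate 1), and 36 to 48 of the list genes against 50. The replicate block over replicates 1 to 4 gave 1028 calls (455 higher and 573 lower), among them 626 of the 935, and 68 list genes. Of 99 called genes named by the rule, 25 lost the call under it, and those printed in the report carry their blocked value there. Sdc4, named below, also lost it (-0.45, adjusted p = 0.0685). The other planned fits gave from 807 calls (plate 1 arrays fitted alone) to 1317 (arrays up to 78 weeks). Runs of called neighbours, 6 in all, ranged from 1 to 6 without single arrays, genes with opposite probe sets, 16 in all, from 7 to 13, and genes with a CD-1 SD over 1 from 63 to 87.

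With the mean of probe sets the sign turned for 6 of the 935 calls, among them Calr3 (0.031), Eloa (-0.035), Sdc4 (0.011) and Zfp697 (-0.024), each of which has probe sets called in opposite directions. Without single arrays it turned for genes not called at 52 weeks in air. Ifi205 ranged from -1.08 to 0.13, Zbtb16 from -0.64 to 0.65, Sult2a2 from -0.29 to 0.76, Glg1 from -0.028 to 0.31 and Trim12c from -0.85 to 0.62. The turned values came without CD-1 replicate 1 for Ifi205, CD-1 replicate 1, WT replicate 3 or WT replicate 4 for Zbtb16, CD-1 replicate 2 for Sult2a2 and CD-1 replicate 4 for Glg1 and Trim12c. The cause was not tested. Counts at other weeks, under styrene, against KO and TG and of both interactions stayed within 1.5 times without the plate term or the filter. Background signal narrows differences of dim genes, which limits their folds.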
